A study of Mus musculus with 6 samples.

Results

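Beta-cell disallowed genes are genes that most tissues use and that mature beta cells keep low. The 10 genes described here are Ldha, Slc16a1, Hk1, Hk2, Acot7, Oat, Maf, Rest, Pdgfra and Igfbp4, taken as every probe set annotated to exactly 1 of these symbols. They had 27 probe sets among 45037 tested, and are 10 of 18193 genes with a probe set of a single symbol. A further probe set names Hk1 among several genes and was left out. Expression was measured in pancreatic islets of hIAPP_Tg mice (3 arrays, replicates 4 to 6) and wild-type mice (3 arrays, replicates 1 to 3), aged 12 weeks and fed standard chow, with 1 array for each mouse. In hIAPP_Tg mice a human islet amyloid polypeptide (IAPP) gene is driven by an insulin (Ins2) promoter, which directs the transgene to beta cells. Both genotypes share the strain name FVB/N-Tg(Ins2-IAPP)RFHSoel/J in the labels, which does not say how the wild-type mice were bred. All values are log2 RMA values, and differences are hIAPP_Tg minus wild type.

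Beta cells couple glucose to insulin release by sending nearly all pyruvate into mitochondria. Lactate dehydrogenase A and the monocarboxylate transporter MCT1 would divert pyruvate to lactate, or let pyruvate from muscle reach the beta cell during exercise. Low-affinity glucokinase, and not the high-affinity hexokinases, normally sets the rate of glucose use there. Other members of the class are enzymes, transcription factors and signalling proteins that are active in progenitors, connective tissue or other organs. Loss of this repression is one description of dedifferentiated beta cells, and an islet also holds cells that are not beta cells, in which these genes are allowed.

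Markers of the endocrine cells were present, as the islet label requires. The insulin gene Ins2 had the highest value of the table, 15.1, on all 6 arrays. The mean over 14 measured beta cell markers was 11.57 to 11.73 on the hIAPP_Tg arrays and 11.77 to 11.84 on the wild-type arrays. Markers of other cells were present too. The mean over 21 acinar markers was 10.94, 8.77 and 10.14 on hIAPP_Tg arrays 4, 5 and 6, against 9.90, 11.17 and 11.49 on wild-type arrays 1, 2 and 3. The mean over 20 macrophage markers was 7.87 to 7.98 on hIAPP_Tg arrays, against 6.91 to 7.03 on wild-type arrays, without overlap. The mean over 21 stellate and fibroblast markers was 7.71, 7.46 and 7.52 on hIAPP_Tg arrays, against 8.01, 7.40 and 7.43 on wild-type arrays, where replicate 1 stands apart. In such bulk samples fewer cells of a type and less RNA in each cell cannot be told apart.

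By brightest probe set, the disallowed genes lay near the middle of the array or moderately above it. The median of all probe sets was 5.7 on each of the 6 arrays, and 7 of the 10 genes had a brightest probe set above it. Taking the brightest probe set raises a gene with several, and 15 of the 27 member probe sets had a mean under that median. The share of all genes above the median by this rule was not computed. Ldha and Oat were the farthest above, by 2.57 and 2.53 in hIAPP_Tg islets, against 2.13 and 2.30 in wild-type islets on the log2 scale. Slc16a1 was the farthest below, at -0.57 in hIAPP_Tg islets and -0.63 in wild-type islets relative to the median. As a yardstick for genes that islets are not known to use, 44 olfactory receptor probe sets had a median level of 4.33 and a 95th percentile of 5.83. By brightest probe set the same 7 genes exceeded that mark, while Hk2, Pdgfra and Slc16a1 did not. The signal of Hk2, Pdgfra and Slc16a1 cannot be told from background here. Maf and Rest passed the mark narrowly. Their brightest probe sets had group means of 6.03 to 6.10, against 5.95 for the highest olfactory receptor probe set. All other probe sets of Maf and Rest lay under the mark. Of the 27 probe sets, 15 had a mean under it. Probe sets differ in how strongly they bind, so a level places a gene on its array and does not rank one transcript against another.

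**Figure D1:**
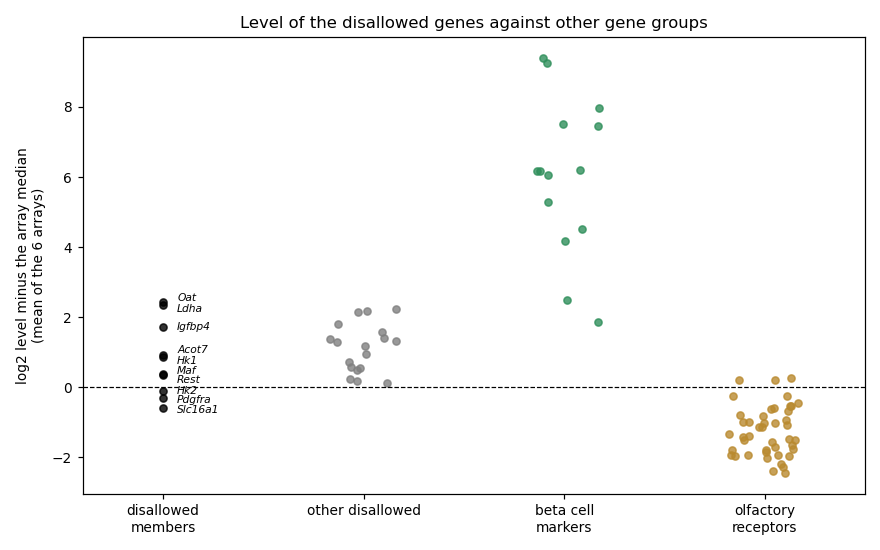
Log2 level minus the array median of 5.7, as the mean of the 6 arrays, for the brightest probe set of each disallowed gene, of 18 other disallowed genes and of 14 beta cell markers, and for 44 olfactory receptor probe sets. Each point is 1 gene (for olfactory receptors 1 probe set) and the dashed line marks the array median; Oat and Ldha are the highest members and Slc16a1 is the lowest.

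No disallowed gene separated the genotypes past the test. Of the 27 probe sets 0 passed limma's test at the threshold of 0.05 after Benjamini-Hochberg adjustment, while 0.0289% of the 45037 tested did. Their limma adjusted p ran from 0.521 to 1. At an unadjusted p under 0.05 there were 4 of 27, namely 3 higher (Ldha, Acot7 and 1 of Pdgfra) and 1 lower (1 of Igfbp4), while 7.33% of all probe sets reached that p, 3.82% higher and 3.51% lower. A fit without moderation of the variances gave 2 at that p, as did the limma fit without hIAPP_Tg replicate 5. For these fits the share over all probe sets was not computed. Values of the groups stayed apart for 2 of the 27, Ldha and 1 of Pdgfra, against 6.66% of all probe sets. By brightest probe set, 0 of the 10 genes passed (0.0440% of all genes did), 6 were above 0 and 4 below, with a median difference of 0.10 and a range of -0.30 to 0.43. The median over all 18193 genes was 0, with 8738 above 0 and 7360 below.

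**Figure D2:**
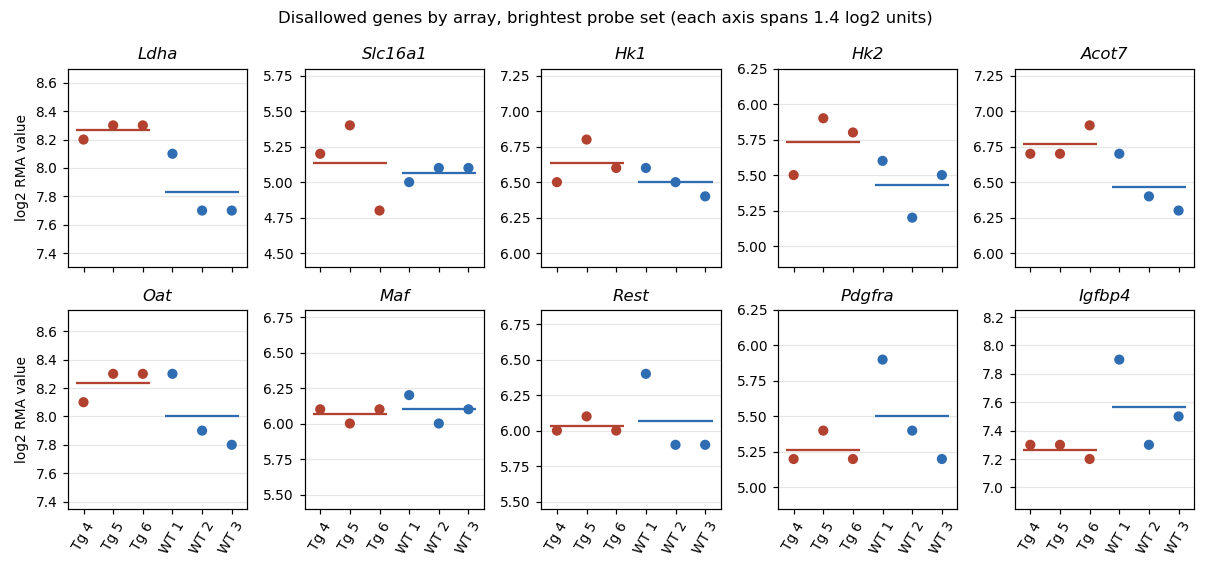
Log2 RMA values of the brightest probe set of each disallowed gene on the 3 hIAPP_Tg arrays (red, left) and the 3 wild-type arrays (blue, right), with a line at each mean; every axis spans 1.4 log2 units. Ldha is the member whose genotypes do not overlap here, and wild-type replicate 1 holds the highest wild-type value in 9 of the 10 panels.

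Among the lactate and pyruvate genes, Ldha, which makes lactate from pyruvate, was at 8.2, 8.3 and 8.3 in hIAPP_Tg islets, against 8.1, 7.7 and 7.7 in wild-type islets. All hIAPP_Tg values lay above all wild-type ones, but wild-type replicate 1 was within 0.1 of them, which is the rounding step of the table. The means (± SD, n = 3) were 8.27 ± 0.058 in hIAPP_Tg islets and 7.83 ± 0.23 in wild-type islets. The difference was 0.43 (SE 0.12, 95% interval 0.14 to 0.73, limma adjusted p = 0.521), or 1.35-fold. An exact permutation test gave p = 0.1, two-sided, the smallest that 3 against 3 arrays allow. The difference was 0.57 without wild-type replicate 1 and 0.37 without replicate 2 or replicate 3, and the adjusted p was 0.395 to 0.704 over the 6 arrays left out in turn. Ldha lay above 83.2 to 83.7% of probe sets on hIAPP_Tg arrays, against 77.6 to 82.1% on wild-type arrays.

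Slc16a1 encodes MCT1, the transporter that carries lactate and pyruvate across the cell membrane. Its brighter probe set was at 5.2, 5.4 and 4.8 in hIAPP_Tg islets, against 5.0, 5.1 and 5.1 in wild-type islets. The wild-type values fell inside the span of the hIAPP_Tg ones, and the difference was 0.067 (95% interval -0.30 to 0.43, limma adjusted p = 0.912). The second probe set stood near the floor, at 3.77 ± 0.15 in hIAPP_Tg islets and 3.80 in wild-type islets, where it was 3.8 on all 3 arrays. Its chaperone gene Bsg, whose product brings MCT1 to the membrane, stood far above the array median at 10.23 ± 0.15 in hIAPP_Tg islets and 10.10 ± 0.20 in wild-type islets. Embigin (Emb), another chaperone of such transporters, was at 12.0 ± 0.10 in hIAPP_Tg islets and 12.03 ± 0.058 in wild-type islets. The lactate exporter gene Slc16a3 differed by -0.033 from a level under the array median, 5.00 in hIAPP_Tg islets and 5.03 in wild-type islets.

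Of the hexokinases, Hk1, the hexokinase of most tissues, had a brighter probe set at 6.5, 6.8 and 6.6 in hIAPP_Tg islets, against 6.6, 6.5 and 6.4 in wild-type islets. The groups overlapped, and the difference was 0.13 (95% interval -0.10 to 0.37, limma adjusted p = 0.770). The dimmer Hk1 probe set differed by 0.20, at 4.53 in hIAPP_Tg islets and 4.33 in wild-type islets. The average of the Hk1 probe sets differed by 0.17 (limma adjusted p = 0.543). Hk2, the insulin-regulated hexokinase of muscle and fat, was at 5.5, 5.9 and 5.8 in hIAPP_Tg islets, against 5.6, 5.2 and 5.5 in wild-type islets. That is a difference of 0.30 (95% interval -0.05 to 0.65, limma adjusted p = 0.661) between values that overlap and lie close to the array median. The intervals of the brightest probe sets of both genes include 0 as well as log2 differences of up to 0.37 for Hk1 and 0.65 for Hk2.

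The promoters of this metabolic branch are shown because Ldha and Hk2 are established targets of hypoxia-inducible factor. Its response element often holds the core ACGTG, the only form of the element sought here. The E-box CACGTG, read by MYC and by clock factors, contains that core. RefSeq windows of 250 bases before the gene start (build GRCm38.p6) were found for 8 of the 10 genes, 10 windows in all. The core was sought on both strands, as ACGTG or CACGT, where an E-box counts on each strand. It was in 3 of the 10 windows and in 16.6% of all 32851 windows of that length, and the E-box was in 2 of the 10 and in 6.02% of all. Ldha had 5 matches, among them 2 E-boxes, Slc16a1 had 2 that form 1 E-box, and Hk2 had 2 and no E-box. Below, 5′ to 3′ on the strand of the gene, capitals mark the matches. The windows lie at chr7:46845554-46845803 (plus strand) for Ldha, chr3:104638414-104638663 (plus strand) for Slc16a1 and chr6:82774455-82774704 (minus strand) for Hk2.
Ldha: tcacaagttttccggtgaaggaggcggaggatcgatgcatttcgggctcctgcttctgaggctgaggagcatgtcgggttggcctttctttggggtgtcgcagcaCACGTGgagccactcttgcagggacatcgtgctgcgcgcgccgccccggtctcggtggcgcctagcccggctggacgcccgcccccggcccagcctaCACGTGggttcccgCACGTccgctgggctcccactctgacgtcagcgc
Slc16a1: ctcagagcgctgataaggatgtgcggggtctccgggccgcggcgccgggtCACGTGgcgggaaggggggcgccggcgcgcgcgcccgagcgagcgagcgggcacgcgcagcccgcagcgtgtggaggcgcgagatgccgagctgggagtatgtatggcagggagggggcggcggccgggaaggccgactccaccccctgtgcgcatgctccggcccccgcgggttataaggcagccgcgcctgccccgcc
Hk2: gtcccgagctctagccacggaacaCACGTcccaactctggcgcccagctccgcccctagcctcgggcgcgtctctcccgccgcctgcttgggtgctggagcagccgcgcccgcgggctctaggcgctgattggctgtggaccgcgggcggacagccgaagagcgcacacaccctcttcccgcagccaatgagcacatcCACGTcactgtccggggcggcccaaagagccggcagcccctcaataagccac
The second Ldha window and the windows of Hk1, Acot7, Oat, Pdgfra and Igfbp4 hold no match, and a match is a stretch of letters, with no binding measured here.

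Among mitochondrial and lipid enzymes, Acot7, a thioesterase that cleaves long-chain acyl-CoA, was at 6.7, 6.7 and 6.9 in hIAPP_Tg islets, against 6.7, 6.4 and 6.3 in wild-type islets. Wild-type replicate 1 reached the hIAPP_Tg values and the other wild-type arrays lay below them. The difference was 0.30 (SE 0.12, 95% interval 0.008 to 0.59, limma adjusted p = 0.632, exact permutation p = 0.3). Oat, the mitochondrial ornithine aminotransferase, was at 8.1, 8.3 and 8.3 in hIAPP_Tg islets, against 8.3, 7.9 and 7.8 in wild-type islets. Wild-type replicate 1 was again level with the hIAPP_Tg arrays and the other wild-type arrays lay below, with a difference of 0.23 (95% interval -0.11 to 0.58, limma adjusted p = 0.720). Without wild-type replicate 1 the differences were 0.42 for Acot7 and 0.38 for Oat, both at a limma adjusted p of 0.444.

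Of the transcription factors, Maf, which encodes c-Maf, a large Maf factor of other endocrine cells and of immune cells, had 6 probe sets and hardly varied. The brightest was at 6.1, 6.0 and 6.1 in hIAPP_Tg islets, against 6.2, 6.0 and 6.1 in wild-type islets. The 6 differences ran from -0.033 to 0.033, and 5 of the probe sets lay under the array median. The 95% interval of the brightest was -0.21 to 0.14 (limma adjusted p = 0.908). Rest, the repressor that silences neuronal genes outside neurons and is switched off in beta cells, had 4 probe sets. The brightest was at 6.0, 6.1 and 6.0 in hIAPP_Tg islets, against 6.4, 5.9 and 5.9 in wild-type islets. Wild-type replicate 1 was the highest of the 6 arrays, and the difference was -0.033 with all arrays and 0.13 without that one (limma adjusted p = 0.953 and 0.532). The other Rest probe sets lay between 4.23 and 4.83 in their group means and differed by -0.13 to 0.13.

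Of the signalling members, Pdgfra, the receptor for platelet-derived growth factor that marks mesenchymal cells, had its brightest probe set at 5.2, 5.4 and 5.2 in hIAPP_Tg islets, against 5.9, 5.4 and 5.2 in wild-type islets. Only wild-type replicate 1 stood out, and the difference of -0.23 (95% interval -0.67 to 0.21, limma adjusted p = 0.780) was -0.033 without it. A dimmer Pdgfra probe set went the other way, at 4.7, 4.8 and 4.9 in hIAPP_Tg islets, against 4.6 on all 3 wild-type arrays. Its genotypes did not overlap and it differed by 0.20 (limma adjusted p = 0.557), at a level well under the array median. The probe sets of Pdgfra thus disagree in sign, and their average differed by 0.

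Igfbp4, a secreted protein that binds insulin-like growth factors, had 6 probe sets, 5 of them below 0. The brightest was at 7.3, 7.3 and 7.2 in hIAPP_Tg islets, against 7.9, 7.3 and 7.5 in wild-type islets, so the groups meet at 7.3. It differed by -0.30 (SE 0.15, 95% interval -0.67 to 0.067, limma adjusted p = 0.683), and by -0.13 without wild-type replicate 1. The dimmest was at 6.0, 5.8 and 5.7 in hIAPP_Tg islets, against 6.2, 6.1 and 6.0 in wild-type islets. That probe set differed by -0.27 (limma adjusted p = 0.620), with the groups meeting at 6.0. The others differed by -0.27 to 0.033. These probe sets read the same gene and are not separate evidence.

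**Figure D3:**
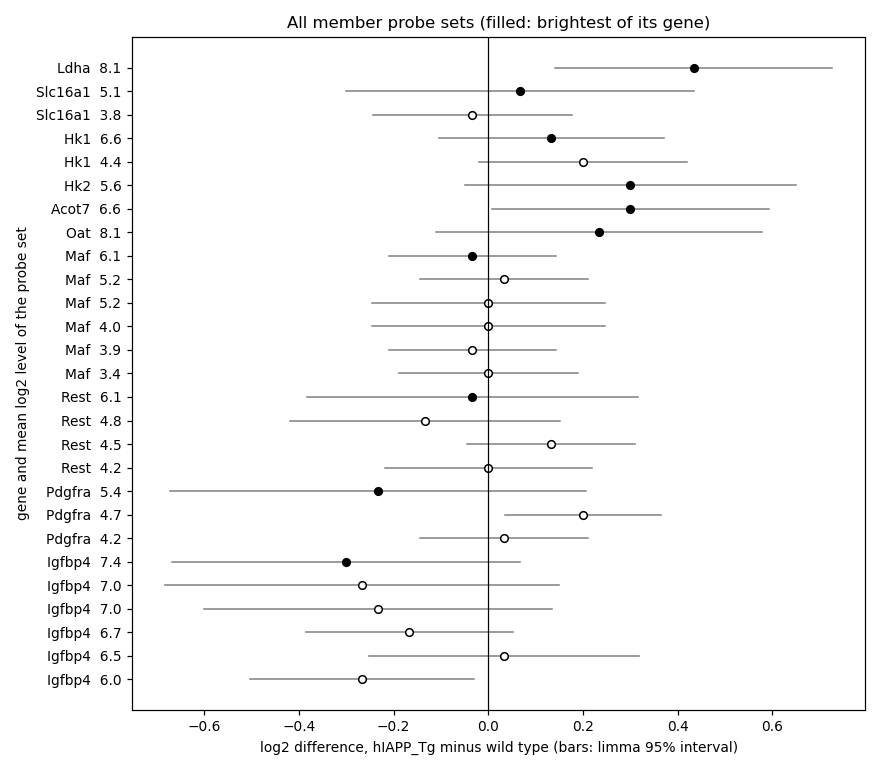
Log2 difference, hIAPP_Tg minus wild type, with its 95% limma interval for all 27 probe sets of the 10 genes; the label gives the mean log2 level, and filled points mark the brightest probe set of a gene. Ldha lies farthest to the right at 0.43, the 6 Maf probe sets stay within 0.033 of 0, and 5 of 6 Igfbp4 probe sets lie left of 0.

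By brightest probe set, most members were highest on the same wild-type array. Wild-type replicate 1 was strictly the highest wild-type array for 9 of the 10 genes, Slc16a1 being the exception. By the same rule this held for 22.5% of the 18193 genes. Dimmer probe sets of these genes were mixed. Replicate 1 was the highest wild-type array for some of Maf and Igfbp4. It was the lowest for 1 of Hk1 (4.2 against 4.3 and 4.5), 1 of Pdgfra (4.1 against 4.2 and 4.3) and 1 of Igfbp4 (6.3 against 6.6 and 6.5). On the same array 14 of 18 other disallowed genes and 17 of 21 stellate and fibroblast markers were the highest of the wild-type group, against 5 of 14 beta cell markers. The fibroblast proteoglycan gene Dcn was at 10.9 there, against 9.6 and 9.7 on the other wild-type arrays. Replicate 1 also had the lowest acinar mean of the wild-type arrays, 9.90 against 11.17 and 11.49. Within the hIAPP_Tg group replicate 5 was the highest for 5 of the 10 genes (21.4% of all genes), and it had the lowest acinar mean of all arrays, 8.77. Replicate 4 was the highest hIAPP_Tg array for 15 of 21 stellate and fibroblast markers, but for 0 of the 10 genes (23% of all genes). The part of these cell types in the members' values was not tested. A fit with the acinar mean as a covariate was chosen after seeing the data. The acinar mean was 9.95 in hIAPP_Tg islets and 10.85 in wild-type islets, with arrays that overlap. This fit can therefore separate it from genotype only in part. In that fit the differences were 0.32 for Ldha, 0.23 for Acot7, 0.16 for Hk2, 0.082 for Oat and 0.017 for Hk1. They were 0.015 for Slc16a1, -0.035 for Maf, -0.17 for Rest, -0.41 for Igfbp4 and -0.43 for Pdgfra. The limma adjusted p was 0.744 or more for all 10 genes.

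**Figure D4:**
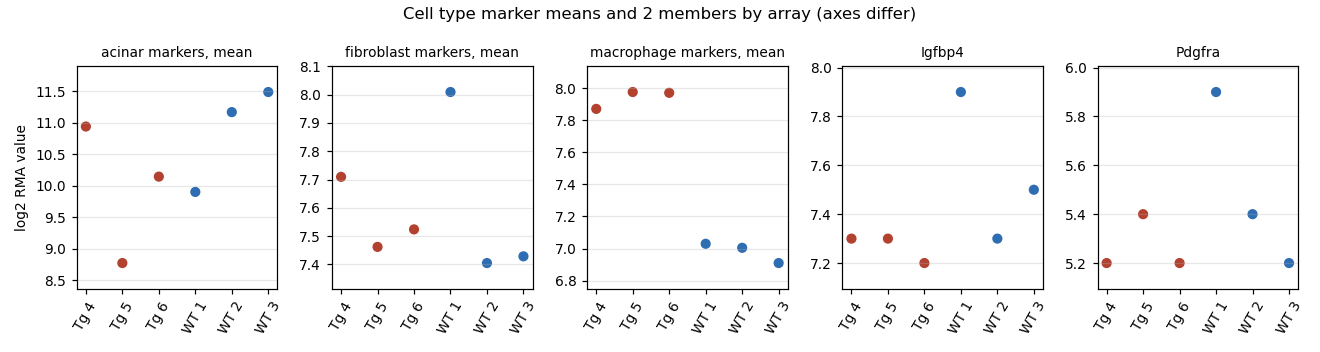
Mean log2 RMA value of 21 acinar, 21 stellate and fibroblast and 20 macrophage markers on each array, beside Igfbp4 and Pdgfra (brightest probe sets), with hIAPP_Tg arrays in red on the left and wild-type arrays in blue on the right; the vertical axes differ. Wild-type replicate 1 is the highest array for the fibroblast mean (8.01), Igfbp4 (7.9) and Pdgfra (5.9). It is also the highest for the brightest probe sets of Rest (6.4) and Maf (6.2), not shown, but not for every probe set of Igfbp4 and Pdgfra.

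Other genes counted as disallowed or low in beta cells had differences in both directions. Of 18 measured, 7 were above 0 and 11 below, the median was -0.083, and 0 passed the test over all probe sets. At an unadjusted p under 0.05 there was 1 higher and 1 lower, while 5.02% and 3.45% of the genes, by brightest probe set, reached that p in these directions. The lower one, Itih5, an inter-alpha-trypsin inhibitor heavy chain gene, was at 6.6, 6.6 and 6.7 in hIAPP_Tg islets, against 8.1, 7.3 and 7.2 in wild-type islets. Its genotypes did not overlap, which the rule for naming list genes required. The difference was -0.90 (SE 0.23, limma adjusted p = 0.503), the largest among the 18, with wild-type replicate 1 again the highest array. The higher one was Arhgdib, which differed by 0.30 (limma adjusted p = 0.620) and was named for that count after its values were seen.

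Around the lactate and hexokinase members, 0 genes passed the test. Of 28 genes of lactate and pyruvate handling 18 were above 0 and 9 below, with a median of 0.05. At an unadjusted p under 0.05, 3 were higher and 1 lower, while 5.02% and 3.45% of all genes were. The cytosolic shuttle enzyme Gpd1 was at 7.7 on all 3 hIAPP_Tg arrays, against 7.3, 7.5 and 7.3 on wild-type arrays (limma adjusted p = 0.431). Mitochondrial malate dehydrogenase, Mdh2, was at 12.43 ± 0.12 in hIAPP_Tg islets and 12.10 ± 0.10 in wild-type islets (limma adjusted p = 0.503). Both differ by 0.33, and for both the genotypes did not overlap, which the rule for naming list genes required. Ldhb, which favours the reverse reaction of lactate to pyruvate, differed by -0.033. Of 13 genes of glucose uptake and phosphorylation 4 were above 0 and 7 below (median -0.033). The only one at an unadjusted p under 0.05 was Hkdc1, a hexokinase relative, at 6.3 on all hIAPP_Tg arrays, against 6.4, 6.5 and 6.5 on wild-type arrays. The beta-cell glucose transporter gene Slc2a2 was at 13.03 ± 0.31 in hIAPP_Tg islets and 13.40 ± 0.10 in wild-type islets (difference -0.37, limma adjusted p = 0.632).

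Genes around the other enzymes gave small positive medians. Of 14 genes of acyl-CoA hydrolysis and activation 11 were above 0 and 1 below (median 0.067, 2 higher and 1 lower at an unadjusted p under 0.05). The thioesterase gene Acot11 differed by 0.30 and the ligase gene Acsl4 by 0.20, while Acot1, at a level under the array median, differed by -0.33. Of 13 genes of ornithine, proline and glutamate metabolism 8 were above 0 and 4 below (median 0.10, 2 higher at that p). Odc1, which turns ornithine into putrescine, was at 9.87 ± 0.15 in hIAPP_Tg islets and 9.47 ± 0.15 in wild-type islets, a difference of 0.40 (limma adjusted p = 0.521). Sat1, which acetylates spermidine, differed by 0.17. None of the genes in these lists passed the limma test over all probe sets. Over all genes, 5.02% were higher and 3.45% lower at an unadjusted p under 0.05.

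Among the factors, Maff, a small Maf without an activation domain, was at 6.9, 7.1 and 7.0 in hIAPP_Tg islets, against 6.6, 6.8 and 6.5 in wild-type islets (difference 0.37, limma adjusted p = 0.503). It was 1 of 4 Maf relatives measured, 3 of them above 0 (median 0.05). REST corepressor genes (12 measured, 7 above 0 and 4 below, median 0.05) had 0 at an unadjusted p under 0.05. Genes known as targets of REST repression, which beta cells and neurons express, had a median of 0.10 (23 measured, 16 above 0 and 3 below). Of these only Scg3, a granin of the secretory granule, had an unadjusted p under 0.05, at 13.93 ± 0.058 in hIAPP_Tg islets and 13.77 ± 0.058 in wild-type islets (limma adjusted p = 0.620). The largest difference of the list was that of Vgf, 0.80 (limma adjusted p = 0.672). Its groups overlapped, at 8.4, 6.9 and 8.1 in hIAPP_Tg islets and 6.9, 7.3 and 6.8 in wild-type islets.

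Around the receptor and the binding protein, 0 genes passed the test. The genes named were picked by unadjusted p, lack of overlap and size of difference, so their differences cannot be weighed against those of the members. Of 6 PDGF ligands and receptors 3 were above 0 and 2 below (median 0.033). Pdgfrb, the receptor of pericytes and stellate cells, was at 9.4, 9.1 and 9.1 in hIAPP_Tg islets, against 9.0, 8.7 and 8.6 in wild-type islets (difference 0.43, limma adjusted p = 0.552). The ligand gene Pdgfd was at 6.2, 6.3 and 6.5 in hIAPP_Tg islets, against 6.6, 6.9 and 6.7 in wild-type islets (difference -0.40, limma adjusted p = 0.521). Neither pair of groups overlapped, which the rule for naming list genes required. In the IGF axis (16 measured, 9 above 0 and 7 below, median 0.067), Igfbp3, another binding protein, was at 10.1, 10.5 and 9.5 in hIAPP_Tg islets, against 9.4, 9.1 and 9.3 in wild-type islets. It differed by 0.77 (limma adjusted p = 0.557), opposite in sign to Igfbp4, and no test of the contrast between these genes was made.

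**Figure D5:**
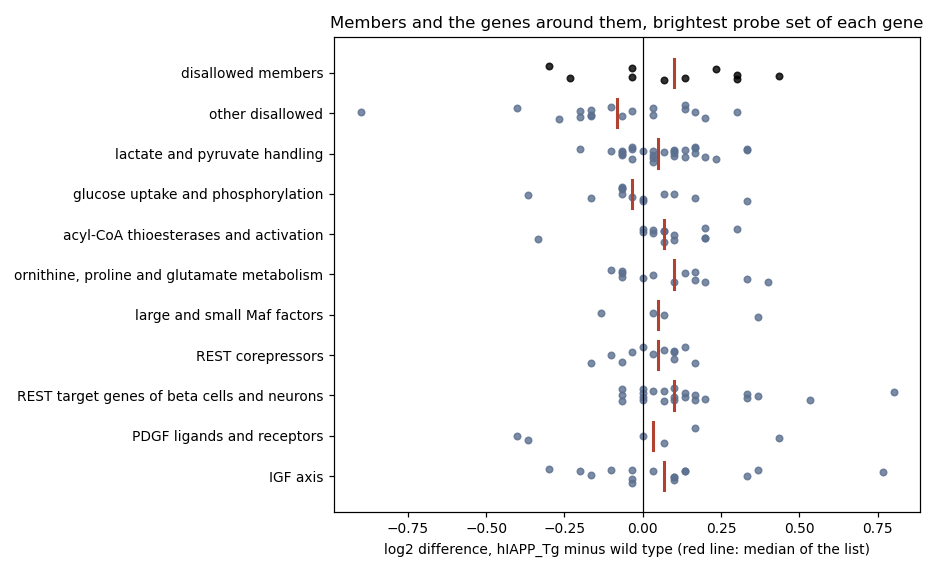
Log2 difference, hIAPP_Tg minus wild type, of the brightest probe set of each gene (points) in the 10 disallowed genes and in 10 lists of related genes, with a red line at each median. The medians lie between -0.083 and 0.10, and Itih5 (-0.90), Vgf (0.80) and Igfbp3 (0.77) are among the most distant points.

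Among the cell type lists, macrophage markers had a median of 1.08 (18 of 20 above 0; 2 passed the limma test over all probe sets) and acinar markers one of -1.03 (19 of 21 below 0; 0 passed). The medians were -0.067 for stellate and fibroblast markers, -0.13 for endothelial markers, 0.13 for duct markers, 0.10 for Schwann cell markers and 0 for lymphocyte markers. They were -0.10 for beta cell markers and -0.067 for markers of alpha, delta and PP cells. In each of these 7 lists 0 genes passed the limma test over all probe sets, and 0 to 4 genes of a list had an unadjusted p under 0.05. Over all genes, 5.02% were higher and 3.45% lower at that p.

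The genes whose array values, centred on their own mean, lay nearest to those of a member are given as a description over the 6 arrays. For Ldha they were Stum and Cd52, each with a root mean square difference of 0.069, and Ctsa with 0.075. For Acot7 they were Fgl2 (0.047), Csrp2 (0.050) and Podxl2 (0.058), for Oat Stx2 (0.037), Nwd2 (0.050) and Chd5 (0.058), and for Hk2 Arhgdib (0.047), Ptpn1 (0.069) and Nelfa (0.069). Igfbp4 was closest to Fmo2 and Sulf1 (0.047 each) and Ccdc88a (0.069), and Pdgfra to Steap4 and Lonrf2 (0.047 each) and Rexo5 (0.069). Rest was closest to Mtpn, Sestd1 and Adgra3 (0.047 each), and Slc16a1 to Neu2 (0.037), Sh2b3 (0.050) and Slc25a24 (0.058). All these distances are under the rounding step of 0.1.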

How the data were processed

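RNA from islets of 6 mice was labelled from 150 ng of total RNA, per the labels' protocols. The authors deposited log2 values per probe set, made by RMA with affy according to their processing notes (versions not given in the sources used here), from 2.9 to 15.1 in steps of 0.1. RMA gives all arrays the same distribution of single probe values, so the distributions of probe set values are alike but not identical. It compresses differences near the ends. Precision is limited by the number of arrays, which have no read depth. The p-values measure the spread between these mice.

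Without 64 control probe sets, 45037 of 45101 were fitted in R 4.3.3 with limma 3.58.1 (lmFit, eBayes, 2-sided), adjusted by Benjamini-Hochberg over all of them with a threshold of 0.05; the fit was tested on simulated data. The platform annotation gave 34945 probe sets 1 symbol, 932 several and 9160 none. The brightest probe set, by mean over all arrays, stood for a gene. The members and 19 gene lists (287 of 319 entries measured) were chosen with earlier results of these data known. Named were all members, Ldhb, Slc2a2 and Ins2 among 6 fixed genes, and, in lists, up to 2 genes a direction with an unadjusted p under 0.05 and no overlap. Bsg, Emb, Slc16a3, Dcn, Arhgdib and Vgf were chosen after their values were seen. Likeness was computed for members ranging over at least 0.5. Alternatives were another normalization, centring, filters on dim probe sets, priors, array weights, no moderation, averaged probe sets and each array left out, with an acinar covariate added after seeing the data. Plots were made in Python 3.11.15 using matplotlib 3.10.9.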

Additional observations from a re-analysis of the deposited data

How the results depend on the processing

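None of the 10 genes passed the limma test under any of the 16 alternatives tried; the lowest adjusted p was 0.265, for Ldha with array quality weights (difference 0.51). Member probe sets at an unadjusted p under 0.05 numbered 4 of 27 in the main fit, where 7.33% of all probe sets reached that p. Of the 27 there were 2 without moderation, 5 with array quality weights, 6 with the acinar covariate and 2 to 4 with an array left out. There were 3 of 10 with averaged probe sets and 3 of 12 with only probe sets above the array median. The share over all probe sets was not computed for these alternatives, so the counts have no background beside them. Calls over all probe sets numbered 13, against 30 with quantile normalization, 51 with a robust prior, 26 with array quality weights, 128 without moderation, 3 with the acinar covariate and 1 to 4 with an array left out. Of 157 gene differences recomputed, 5 changed sign, all in genes near 0. With array quality weights Slc16a1 differed by -0.0063 and Rest by 0.046. With an array left out Slc16a1 ranged from -0.067 to 0.23, Rest from -0.12 to 0.13 and Maf from -0.083 to 0.017, and the cause was not tested. The median over the 10 genes was 0.025 to 0.18 with an array left out and 0.016 with the acinar covariate, against 0.10. With only probe sets above the array median tested, 7 of the 10 genes were left. No paired analysis was possible because the replicate numbers differ between the genotypes. Levels close to those of olfactory receptors limit what can be said of Slc16a1, Hk2, Pdgfra, Maf and Rest.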
